A study of Caenorhabditis elegans with 6 samples.

Results

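The histone genes of Caenorhabditis elegans are described here as the rows whose WormBase symbol is his- and a number and whose value was above 0 FPKM in any library. FPKM counts sequenced fragments relative to the transcript's length and to the depth of the library. There were 70 such genes of 72 with a his- symbol, out of 22268 rows above 0 and 45343 rows in all. At the edge of the rule, his-20 was kept with 0.288 FPKM in WT replicate 2 and 0 elsewhere, while his-8 and his-39 were listed at 0 in each library. By type the 70 were 17 H2A, 15 H2B, 15 H3, 16 H4, 5 H3.3 or H3.3-like and 1 H1 gene (his-24), plus his-73, whose short coding sequence was given no type. Types came from textbook assignments. The script checked each against the coding length in the WBcel235 annotation, which differs between H2A, H2B, H3 and H4.

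RNA came from whole mid-L3 larvae, L3 being the third larval stage, synchronized with bleach and raised on plates. There were 3 libraries of the wild-type strain N2 Bristol (WT) and 3 of blmp-1(tm548), with no other allele or agent given in the labels. The labels name the samples as replicates and do not say how cultures were kept apart, so the p-values measure the spread between these libraries. The gene blmp-1 (F25D7.3) encodes a zinc-finger transcription factor related to mammalian Blimp-1. Its own transcript was at 64.9, 71.1 and 75.2 FPKM in WT and at 40.3, 36.9 and 37.96 FPKM in the mutant, where it fell (limma adjusted p = 0.00299). The steps of low FPKM values, described with the H2B genes, put the depth at about 9000000 to 9700000 reads per library. The part of the gene that tm548 removes is not given in the labels, so this is only a partial check of them.

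Histones are the proteins around which DNA is wound in the nucleosome. H2A, H2B, H3 and H4 form its core, and H1 binds the DNA that links nucleosomes. Most core histone genes of animals are made in S phase, exist as many similar copies, carry no introns, and give messages that end in a stem-loop, bound in worms by CDL-1, and not in a poly(A) tail. Variants such as H3.3 are made outside S phase too, from genes with introns and polyadenylated messages. In L3 larvae, dividing cells include those of the germline, the vulva precursors and the epidermal seam. The labels name a TruSeq kit, and kits of this kind usually select poly(A) RNA. Whether a selection was used is not given in the sources used here, and its part in the levels below was not tested.

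The annotation parts the 70 genes in a way that the rule did not use. For 63 of them the gene model is a single coding exon, and for 7 it has introns and untranslated regions: his-24, his-35, his-37, his-41, his-71, his-72 and his-74. The length of the longest annotated transcript was taken for each gene, except for his-57, where the transcript with the fewest exons was taken. The place of his-57 among the 63 may rest on this choice. The 7 genes with introns had the highest levels of all members. In WT their means ran from 114 to 204 FPKM, with a median of 187 FPKM. The single-exon genes had means of 0 to 68.5 FPKM in WT, with a median of 14.8 FPKM over 65 genes, the 2 listed at 0 included. Levels per length compare only roughly between these short single-exon models and the longer ones. The length in use was estimated to be reduced by about 203 nt, which weighs most on short models. Copies of like sequence can also take each other's reads, and how alike the copies are was not measured here.

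The H2A gene his-35 (C50F4.13), with introns and UTRs, was at 194, 211 and 205 FPKM in WT and at 191, 194 and 202 in the mutant. Its neighbour his-41 (C50F4.5), an H2B gene, was at 181, 196 and 191 FPKM in WT and at 177, 175 and 184 in the mutant. The H4 gene his-37 (C50F4.7) was at 196, 195 and 188 FPKM in WT and at 195, 194 and 202 in the mutant. In all 3 genes the groups overlapped. These 3 genes lie next to each other on chromosome V, and none passed the test (limma adjusted p = 0.520, 0.317 and 0.705).

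Of the H3.3 genes, his-72 (Y49E10.6) was at 176, 194 and 192 FPKM in WT and at 193, 202 and 207 in the mutant. The gene his-71 (F45E1.6) had means of 160 ± 2.97 and 157 ± 6.17 FPKM, and his-74 (W05B10.1) had means of 114 ± 5.46 and 121 ± 6.38 FPKM (SD, n = 3). None of the 3 passed (limma adjusted p = 0.323, 0.746 and 0.454). The linker histone gene his-24 (M163.3) was at 144, 160 and 158 FPKM in WT and at 162, 166 and 187 in the mutant. Its groups did not overlap, and it missed the threshold (limma adjusted p = 0.249).

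Other abundant transcripts had levels close to those of his-35, his-37, his-41 and his-72. The muscle myosin gene unc-54 was at 184 to 205 FPKM over the 6 libraries, the actin gene act-1 at 200 to 219 and the elongation factor gene eef-1A.1 at 213 to 230. Each of them had its 2 highest values in WT replicate 2 and mutant replicate 3, where 1 read was worth the most FPKM. Among all tested features, means ran up to 8079 FPKM in WT and 7080 FPKM in the mutant. Whether levels in the range of unc-54, act-1 and eef-1A.1 are held down by an upper limit was not tested. Close levels here may thus not reflect equal abundance, and the 7 genes with introns and UTRs carry the same limit. By the mean over the 6 libraries, the order from high to low was his-35 (199.7 FPKM), his-37 (195), his-72 (194) and his-41 (184). Within the WT libraries his-72 overlapped with his-37 and his-41, and his-37 overlapped with his-35, so there these neighbours did not differ beyond their spread. In WT alone the mean of his-41 (189 FPKM) was above that of his-72 (187). In the mutant each library of his-72 (193, 202 and 207 FPKM) lay above each of his-41 (177, 175 and 184). The other neighbours in this order overlapped in the mutant.

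**Figure D1:**
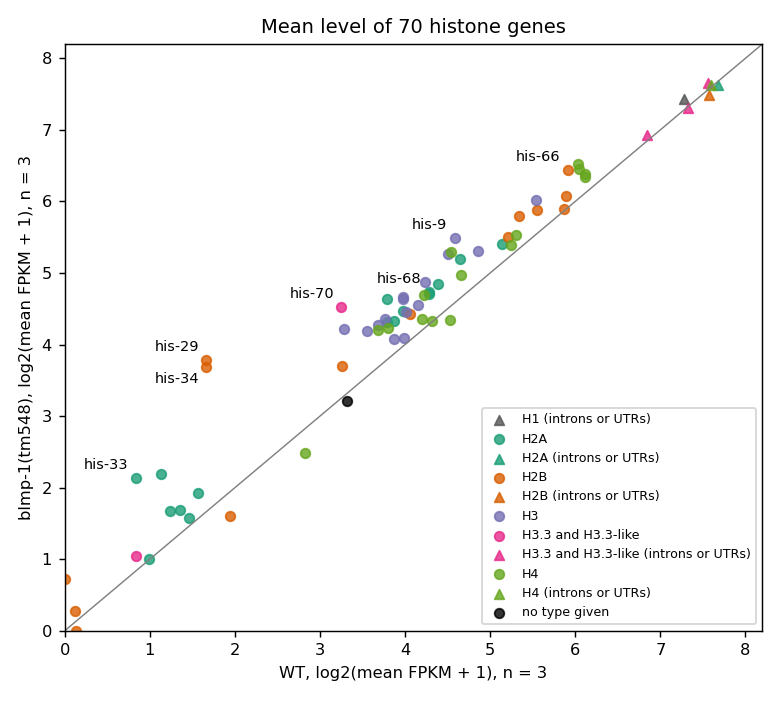
Mean level of the 70 histone genes in WT (x axis) and blmp-1(tm548) (y axis), both as log2(mean FPKM + 1), n = 3 per group, with colours for the histone type, triangles for the 7 genes with introns and UTRs, and a grey line of equal levels. The triangles sit at the top on the line, while most circles lie above it, farthest for his-29 and his-34.

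Mutant and WT libraries were compared to see how histone transcripts differ where blmp-1 carries the tm548 allele. A mean of 1 FPKM or more over the 6 libraries was required for a test, and 65 of the 70 histone genes reached it. The genes his-9, his-29, his-34 and his-68 rose in the mutant and none fell (limma on log2(FPKM + 1), Benjamini-Hochberg adjusted p under 0.05 over 17058 features, n = 3 per group). That is 4 of 65, against 6.4% of all tested features called in either direction (3.34% of all were called higher and 3.06% lower). The 4 genes are single-exon copies of an H3, 2 H2B and an H2A gene. Without adjustment, 21 of the 65 were higher and 0 lower at a p under 0.05, against 11.1% and 11.8% of all features. The median log2 difference of the 65 was 0.41, and that of all tested features was 0.00.

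The count of 4 depended on single libraries, and fewer libraries also lower the power to call. It was 2 without WT replicate 1 or mutant replicate 3, 1 without WT replicate 2 or 3, 0 without mutant replicate 1 and 4 without mutant replicate 2. With library weights it was 14 higher and 1 lower, where 4117 of the 17058 features were called in all. In the 6 fits that each left out a library the median stayed above 0, from 0.24 without mutant replicate 3 to 0.50 without mutant replicate 2. In bulk samples, fewer cells of a type and less RNA per cell cannot be told apart.

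The 2 kinds of gene model differed in their values. Of 58 tested single-exon genes, 52 had a log2 difference above 0 (all features 50.2%), with a median of 0.44. In 18 of them each mutant library lay above each WT library, against 13.7% of all tested features, and in 1, his-54, each lay below, against 15% of all. Of the 7 genes with introns and UTRs, 4 had a difference above 0, with a median of 0.03. The summed level of these 7 genes was 1157, 1234 and 1212 FPKM in WT and 1188, 1212 and 1264 FPKM in the mutant. The summed level of the 60 single-exon H2A, H2B, H3 and H4 genes was 1129, 1297 and 1389 FPKM in WT and 1610, 1393 and 2126 FPKM in the mutant. All 3 mutant sums of the single-exon genes were above the WT sums, with mutant replicate 2 only just above WT replicate 3, while the sums of the 7 genes overlapped. The difference between the 2 kinds of gene was not tested. The 7 genes, with WT means of 114 to 204 FPKM, lay in or near the range of unc-54, act-1 and eef-1A.1. Those abundant genes had log2 differences of 0.003 to 0.010. Whether a change would be compressed at such levels was not tested, so the 7 genes are not shown to be unchanged.

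Mutant replicate 3 stood apart in the single-exon genes. Of the 58 tested ones, 51 (87.9%) had their highest value in that library, which held for 18.3% of all tested features. Without mutant replicate 3, 45 of the 58 still had a difference above 0, with a median of 0.30, and the summed level was 1.18 times that of WT in place of 1.34 times. In that library 1 read was worth 1.08 times as much FPKM as in WT replicate 1, and in WT replicate 2 it was worth 1.07 times as much.

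**Figure D2:**
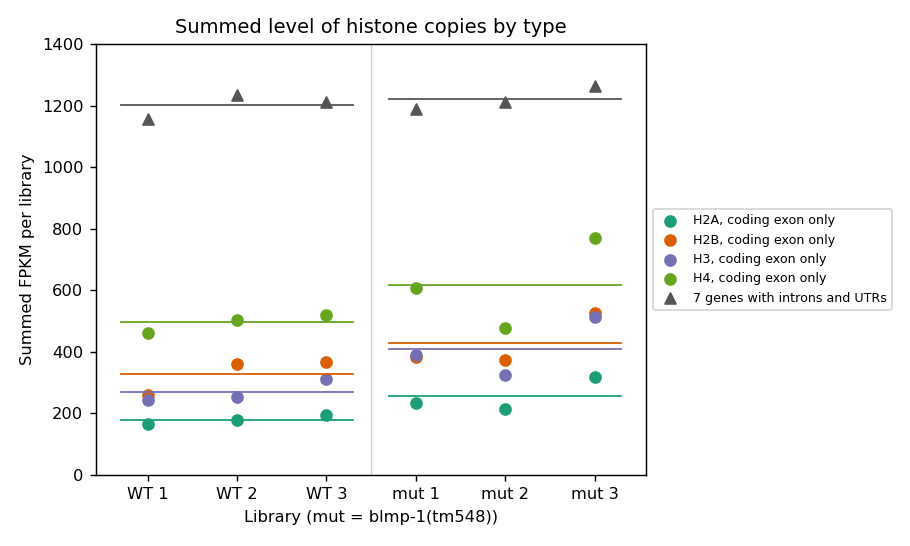
Summed FPKM per library (y axis, from 0) of the single-exon H2A, H2B, H3 and H4 genes and of the 7 genes with introns and UTRs, for 3 WT and 3 blmp-1(tm548) libraries, with a line at each group mean. Mutant replicate 3 is the highest library for each of the 4 single-exon sums, while the 7 other genes stay between 1157 and 1264 FPKM in all 6 libraries.

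Among the H3 genes, which encode the core histone that carries many of the known chromatin marks, all 15 had a log2 difference above 0, with a median of 0.61. The level of his-9 (ZK131.3) was 21.8, 20.7 and 26.3 FPKM in WT and 45.1, 38.6 and 48.1 FPKM in the mutant. It rose 1.88-fold as measured on log2(FPKM + 1), where the difference was 0.91 (SE 0.122) and the limma adjusted p was 0.0128. The groups did not overlap, and each mutant library was well above the highest WT library. The call was lost when WT replicate 2 (adjusted p = 0.0566) or mutant replicate 1 (0.0596) was left out, with a range over all alternatives of 0.00193 to 0.139.

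The other H3 copies did not pass. The groups of his-63 (F22B3.2) lay apart, at 9.41, 6.84 and 9.94 FPKM in WT and 15.3, 13.6 and 23.9 FPKM in the mutant (log2 difference 0.91, limma adjusted p = 0.0863). The most abundant H3 copy, his-32 (F17E9.10), was at 46.4, 41.04 and 48.9 FPKM in WT and 62.6, 50.8 and 78.7 FPKM in the mutant (adjusted p = 0.156). The copy his-13 (ZK131.7), chosen after its values were seen, had 46, 35 and 47 reads in WT and 79, 57 and 82 in the mutant (adjusted p = 0.0667). In 7 of the 15 H3 genes each mutant library lay above each WT library, against 13.7% of all tested features. Summed over the type, H3 was at 244.5, 253.9 and 311 FPKM in WT and at 389, 326 and 511.5 FPKM in the mutant, a ratio of means of 1.51. It was 1.32 without mutant replicate 3. All 15 H3 genes are single-exon genes, and over single-exon genes alone the ratio was 1.43 for H2A, 1.30 for H2B and 1.25 for H4. Without mutant replicate 3 these were 1.26 for H2A, 1.15 for H2B and 1.09 for H4. The differences between the types were not tested.

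The 2 H2B copies his-29 (F35H10.11) and his-34 (F17E9.9) showed the largest differences of any member. The level of his-29 was 1.88, 3.35 and 1.27 FPKM in WT and 12.6, 8.21 and 17.5 FPKM in the mutant (log2 difference 2.12, SE 0.348, limma adjusted p = 0.0236). That of his-34 was 0.625, 3.35 and 2.55 FPKM in WT and 12.6, 10.1 and 12.8 FPKM in the mutant, a log2 difference of 2.13 with SE 0.383 (adjusted p = 0.0296). Both were low in each WT library, and their groups did not overlap. The call of his-29 was lost when WT replicate 1 (adjusted p = 0.0617), WT replicate 3 (0.0568) or mutant replicate 1 (0.0925) was left out, with a range over all alternatives of 0.0107 to 0.199. That of his-34 was held without WT replicate 1 and lost without any other single library (0.0523 to 0.114), with a range over all alternatives of 0.00966 to 0.114.

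Their low values lay on steps that could be read as whole reads. For 52 single-exon members, which share 4 transcript lengths, the worth of 1 read was found for each length, and in 30 members all 6 values were whole within 0.15 reads. By these steps his-29 had 3, 5 and 2 reads in WT and 20, 13 and 26 in the mutant. In the same way his-34 had 1, 5 and 4 reads in WT and 20, 16 and 19 in the mutant. The values of each copy thus rested on at most 26 reads in a library. The H3 gene his-9 rested on more, with 44, 39 and 52 reads in WT and 90, 77 and 90 in the mutant. The 2 H2B copies share a coding length. How alike their sequences are was not measured here, so the copy that a read came from is uncertain. The calls of his-29 and his-34 may thus not be independent.

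**Figure D3:**
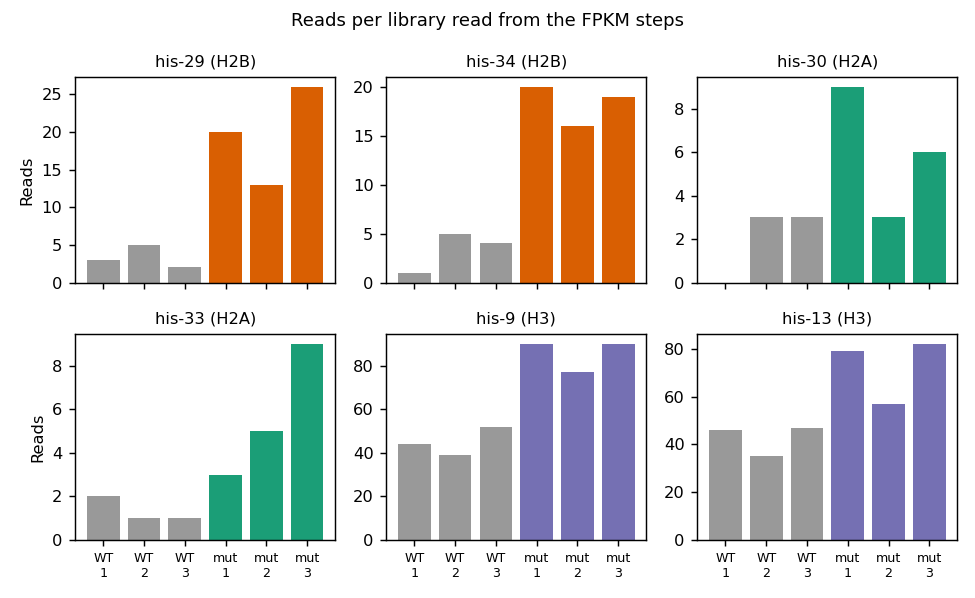
Reads per library (y axis, from 0, own scale in each panel) of 6 single-exon histone genes, read from the steps of the FPKM values, with WT in grey and blmp-1(tm548) in colour. In his-29, his-34, his-33, his-9 and his-13 each mutant bar is above each WT bar, in his-30 they overlap, and his-30 and his-33 stay at 0 to 9 reads in all 6 libraries.

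The remaining H2B genes had smaller differences. Of 12 tested H2B genes 10 had a difference above 0, with a median of 0.36. The most abundant single-exon copy, his-66 (H02I12.6), was at 43.6, 61.8 and 72.6 FPKM in WT and 73.8, 80.6 and 104 FPKM in the mutant (log2 difference 0.54, limma adjusted p = 0.198). Its groups did not overlap, but the highest WT library came close to the lowest mutant one. With the replicate number as a block his-66 passed (adjusted p = 0.0481). The single-exon copy his-54 (F07B7.11), the only member with each mutant library below each WT library, was at 2.77, 2.97 and 2.82 FPKM in WT and 2.33, 2.33 and 1.49 FPKM in the mutant (adjusted p = 0.387). It was named after its values were seen. Summed over all H2B genes, his-41 included, the ratio of means was 1.17, and 1.07 without mutant replicate 3. The gene his-41 gave 36.6% of the sum in WT and 29.5% in the mutant. The level of his-41 carries the limit given above for abundant transcripts, and so do this share and the ratio.

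Of the H2A genes, 14 of 16 tested had a difference above 0, with a median of 0.45. The gene his-68 (T23D8.6) was at 18.7, 19.3 and 17.4 FPKM in WT and 25.2, 25.1 and 26.4 FPKM in the mutant. The change was small next to those of the H2B copies, but the libraries of each group lay close together (log2 difference 0.45, SE 0.0781, limma adjusted p = 0.0271). Leaving out any 1 library ended the call of his-68 (adjusted p = 0.0522 to 0.106), with a range over all alternatives of 0.00729 to 0.179. The largest H2A differences were those of his-33 (F17E9.13), with 2, 1 and 1 reads in WT and 3, 5 and 9 in the mutant, and of his-30 (F35H10.1), with 0, 3 and 3 reads in WT and 9, 3 and 6 in the mutant. In his-33 each mutant library lay above each WT library, while the groups of his-30 overlapped. Their adjusted p were 0.118 and 0.265, and his-33 passed with library weights (0.0406). The most abundant single-exon H2A gene, his-3 (T10C6.12), was at 31.8, 29.5 and 41.1 FPKM in WT and 36.98, 34.8 and 51.9 FPKM in the mutant, with groups that overlapped. Summed over all H2A genes, his-35 included, the ratio of means was 1.18, and 1.09 without mutant replicate 3. The gene his-35 gave 53.3% of the sum in WT and 43.4% in the mutant. The level of his-35 carries the limit given above for abundant transcripts, and so do this share and the ratio.

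The H4 genes had the lowest median log2 difference among the 4 core types, at 0.22. In FPKM they included the highest single-exon members, an order that depends on the length correction. By reads the longer H2B gene his-44, with 74, 97, 101, 95, 89 and 123 over the 6 libraries, was above the H4 gene his-26 in 5 of them. Of 16 tested, 13 had a difference above 0, and in none were the groups apart. Of all tested features, 13.7% had each mutant library above each WT library and 15% had each below. The copy his-26 (ZK131.1) was at 68.2, 59.9 and 65.7 FPKM in WT and 96.8, 67.03 and 109 FPKM in the mutant (log2 difference 0.46, limma adjusted p = 0.196). It passed without mutant replicate 2, the mutant library in which it was lowest (adjusted p = 0.0323). The copy his-31 (F17E9.12) had the largest difference, at 26.97, 19.5 and 20.2 FPKM in WT and 40.1, 24.04 and 50.4 FPKM in the mutant (0.71, adjusted p = 0.204). Next in size was his-50 (F07B7.9), with 11, 16 and 9 reads in WT and 15, 15 and 23 in the mutant (0.53, adjusted p = 0.320). The summed H4 level was 658, 699.9 and 707 FPKM in WT and 800.4, 671 and 971 FPKM in the mutant, so that mutant replicate 2 lay inside the WT range. The ratio of means was 1.18, and 1.07 without mutant replicate 3. The sum includes his-37, to which the limit given above for abundant transcripts also applies.

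**Figure D4:**
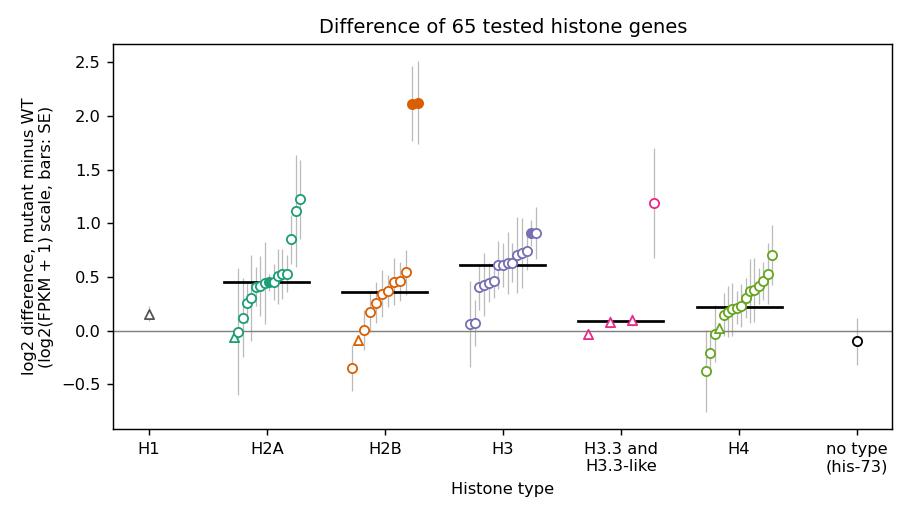
The log2 difference, mutant minus WT, of the 65 tested histone genes by type (y axis, log2(FPKM + 1) scale), with SE bars, filled symbols for the 4 genes that passed limma, triangles for the 7 genes with introns and UTRs, and a line at the median of each type with more than 1 gene. All H3 genes lie above 0, and the 2 filled H2B symbols stand above 2.

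The 2 remaining genes of the H3.3 group are single-exon genes that neighbour each other. The gene his-70 (E03A3.4) was at 13.3, 6.57 and 5.73 FPKM in WT and at 28.4, 28.9 and 8.80 FPKM in the mutant. Mutant replicate 3 was thus the lowest mutant library for his-70, the reverse of its place for most single-exon members, and the groups overlapped (log2 difference 1.19, limma adjusted p = 0.236). With library weights his-70 passed (adjusted p = 0.0157), as did his-63 (0.0131), his-32 (0.0303), his-33 (0.0406) and his-31 (0.0487), while his-41 passed as lower (0.0334). The gene his-69 (E03A3.3) was at 0.388 to 1.22 FPKM in WT and 0.385 to 1.64 FPKM in the mutant, below the minimum for a test. The gene his-73 (W09H1.2), with no type, was at 8.97 ± 2.02 FPKM in WT and 8.27 ± 1.76 FPKM in the mutant (adjusted p = 0.827).

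Most histone genes neighbour other histone genes in the WBcel235 annotation. With neighbours taken as histone genes within 20000 nt, 67 of the 72 genes fell into 13 groups. Within them, 30 pairs of an H2A and an H2B gene, or of an H3 and an H4 gene, follow each other among the histone genes and point away from each other. The stretch between the genes of a pair was not measured, nor was it searched for other genes. In 26 pairs both genes were tested, and in 22 of these both had a difference above 0. The 2 genes of a pair could still differ in level, as for his-66 and his-65, whose means over the 6 libraries were 72.7 and 16.3 FPKM.

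The group of his-29, his-30, his-31, his-32, his-33 and his-34 on chromosome IV had the largest difference among groups with more than 2 genes, and 2 of its 6 genes passed the test. Its summed level was 77.0, 69.7 and 75.3 FPKM in WT and 135, 97.8 and 169 FPKM in the mutant, a ratio of means of 1.81, and 1.57 without mutant replicate 3. The 3 mutant sums lay above the 3 WT sums. In the largest group, the 13 genes around his-9 on chromosome II, all 13 differences were above 0, with a median of 0.45. In the group of his-1, his-2, his-3 and his-4 on chromosome V the ratio was 1.17, and 0.976 without mutant replicate 3. For his-38 and his-40 on the X chromosome it was 0.958, and 0.794 without mutant replicate 3.

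In 3 groups on chromosome V the levels differed by type. The 10 H2A and H2B genes there, his-7, his-8, his-19, his-20, his-21, his-22, his-51, his-52, his-53 and his-54, had means of 0 to 2.45 FPKM over the 6 libraries, with the shorter his-39, listed at 0, left out. The 8 H3 and H4 genes of the same groups had means of 14.6 to 27.4 FPKM. Of these 10 genes, his-22 was at 0 in WT and at 0, 0.620 and 1.32 FPKM in the mutant, and his-52 was above 0 in 1 library of each group. Whether reads of these copies were assigned to others was not tested.

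**Figure D5:**
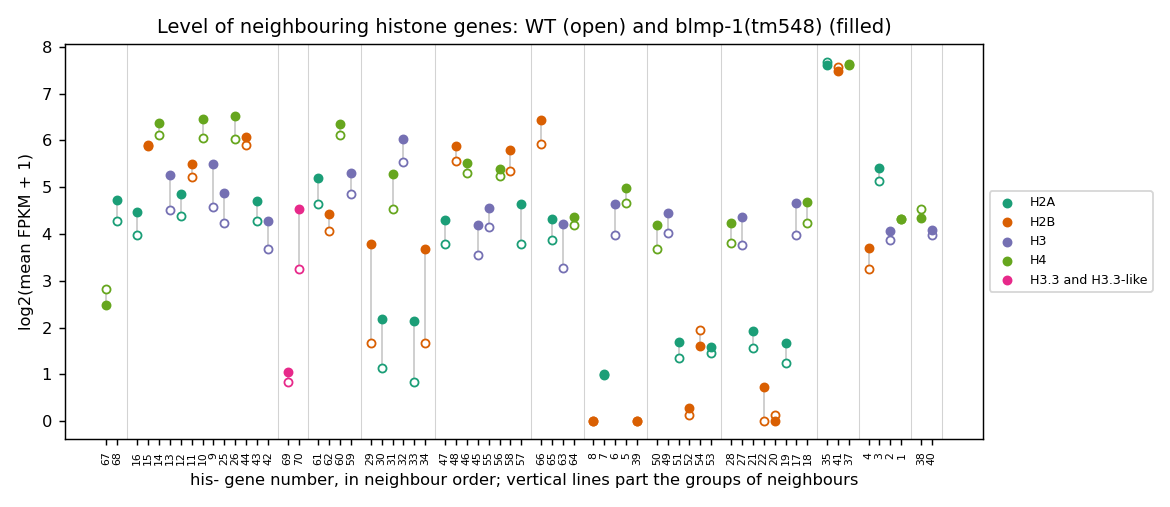
Mean level, as log2(mean FPKM + 1), of the 67 histone genes that neighbour others, in their order along the chromosomes, with open symbols for WT, filled symbols for blmp-1(tm548), colours for the type and vertical lines between the 13 groups. The H2A and H2B genes of 3 groups on chromosome V lie near the bottom, and the largest gaps between open and filled symbols are those of his-29 and his-34.

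The lists of genes that act with histones were chosen with earlier results of these data known. Of 41 genes of DNA replication and S phase, 0 rose and 1 fell, with a median log2 difference of -0.04 (0 higher and 3 lower at an unadjusted limma p under 0.05). Of all tested features, 3.34% were called higher and 3.06% lower. At an unadjusted limma p under 0.05 these shares were 11.1% and 11.8%. In lists this short, 0 calls are near the called shares and do not show that the genes are unchanged. The gene that fell was psf-1, a subunit of the GINS complex of the replication fork, at 51.9, 52.6 and 52.9 FPKM in WT and 41.3, 41.2 and 42.8 FPKM in the mutant (adjusted p = 0.0163). Its groups did not overlap, but its adjusted p was above 0.05 when WT replicate 2 (0.0878), WT replicate 3 (0.0525), mutant replicate 1 (0.0771) or mutant replicate 2 (0.0709) was left out. The sliding clamp gene pcn-1 was at 119 ± 9.74 FPKM in WT and at 118 ± 7.83 FPKM in the mutant, and rnr-1, for the large subunit of ribonucleotide reductase, at 87.8 ± 15.1 and 85.1 ± 12.9 FPKM (SD, n = 3). The summed level of this list was 2137 to 2488 FPKM in WT and 2180 to 2387 FPKM in the mutant. Mutant replicate 3, the highest library for most single-exon histone genes, was at 2387 FPKM and lay within the WT range. It was also the highest mutant library for this list, above 2180 FPKM in replicate 1 and 2254 FPKM in replicate 2. In WT the sums of this list and of the single-exon histone genes both rose from replicate 1 to 3. Mutant replicates 1 and 2 were in opposite order in the 2 sums. Whether the sums move together was not tested.

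The shares of all features given with the replication list apply to the next lists too, which are shorter. In 10 genes of histone mRNA maturation 0 passed in either direction by limma, and 0 had an unadjusted p under 0.05 (median log2 difference 0.00). The stem-loop binding protein gene cdl-1 was at 61.1, 77.5 and 85.6 FPKM in WT and 73.9, 78.1 and 81.3 FPKM in the mutant, with groups that overlapped. Of 17 histone chaperone and chromatin assembly genes 0 passed, with 0 higher and 1 lower at an unadjusted limma p under 0.05 (median -0.01). Of 11 histone variant and linker histone genes with other names 0 passed, with 1 higher at an unadjusted limma p under 0.05 (median 0.14). Among these the H2A.Z gene htz-1 was at 164 ± 12.1 and 171 ± 7.70 FPKM, and hcp-3, for the centromeric H3 variant, at 60.3 ± 2.88 and 59.1 ± 1.53 FPKM (SD, n = 3).

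Markers of tissues that whole larvae hold are given beside these results, and their part in them was not tested. Their counts are to be read against the shares of all features given with the replication list. Of 22 germline markers 0 passed by limma (2 higher at an unadjusted p under 0.05), 19 of the 22 had a log2 difference above 0 (all features 50.2%), and their summed level was 1142 to 1369 FPKM in WT and 1333 to 1419 in the mutant. Of 15 oocyte and embryo markers 0 passed (0 at an unadjusted limma p under 0.05) and 1 had a difference above 0 (median -0.28), with sums of 339 to 660 FPKM in WT and 365.9 to 390 in the mutant. Of 19 sperm markers 18 were tested, 0 passed (3 higher at an unadjusted limma p under 0.05) and 7 had a difference above 0, with sums of 169 to 520 FPKM in WT and 227 to 399 in the mutant. Of 12 intestine markers 11 were found in the table, 0 passed (1 higher at an unadjusted limma p under 0.05) and 4 had a difference above 0, with sums of 1174 to 1385 FPKM in WT and 1124 to 1203 in the mutant. No marker of these lists was at 0 in all 6 libraries.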

How the data were processed

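The authors deposited 1 table of FPKM values with a column per library. The submitters' processing notes name Cufflinks 2.0.2, TopHat2 2.0.7 and Cuffdiff. The sources used here give no build, annotation, strand setting or duplicate removal, so no coordinates are printed. Columns were matched to samples by strain and letter. Symbols came from a RefSeq table of WBcel235 (44031 of 45343 rows matched). FPKM values are not counts, so log2(FPKM + 1) of 17058 features with a mean of at least 1 was fitted with limma 3.58.1 in R 4.3.3 (trended prior, group as the single term), with Benjamini-Hochberg adjustment over all features. The script was tested on simulated data. Members and lists were chosen with earlier results of these data known. Named genes were called members, the examples of the rule, the 2 most abundant and 2 most different of each type, all H3.3 genes and his-24, plus called and 5 preset list genes; others were chosen after their values were seen. For single-exon genes of 4 lengths, the worth of 1 read in FPKM was found as the step that made most values under 40 reads whole within 0.05. These worths fitted a length reduced by about 203 nt and a depth of about 9000000 to 9700000 reads per library. They are estimates, and no count test was built on them.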

Additional observations from a re-analysis of the deposited data

How the results depend on the processing

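The median log2 difference of the tested histone genes and the summed level of each histone type kept their direction in every alternative run. The number of histone genes that rose was 3 to 5 under other pseudocounts, filters, scalings, a constant prior and the block, 14 with library weights (1 fell there), 0 without replicate 1 of both groups, and 0 to 4 when a single library was left out. Of the listed pathway and marker genes 0 rose and 1 fell in the main setting. With a constant prior variance 1 rose, with library weights 7 rose and 9 fell, and without replicate 1 of both groups 0 fell. Leaving out a single library gave 0 to 2 that rose and 0 to 2 that fell. Why the counts moved with library weights was not tested. Same-numbered libraries deviated together weakly or not at all (correlations of 0.133, -0.0352 and 0.0697 across features for numbers 1, 2 and 3), so the numbers were not taken as pairs. Between libraries of unlike number the correlations ran from -0.138 to 0.0565, below the values for numbers 1 and 3. With the replicate number as a block, 5 histone genes rose, and his-9 was kept (adjusted p = 0.0175) while his-29, his-34 and his-68 missed the threshold (0.0706, 0.0600 and 0.0639) and his-66 gained it (0.0481). With a pseudocount of 0.1 the call of his-34 was lost (adjusted p = 0.0527). Among the values of single named genes under the alternatives, 409 kept their side of the threshold, 29 lost it and 8 gained it. No called gene changed sign, but 4 genes that did not pass did so under 15 of their alternatives. These were his-73 (-0.10, and 0.10 with library weights), cdl-1 (0.07, and -0.07 without WT replicate 1), pcn-1 and rnr-1. Genes such as his-30 and his-33 rest on 0 to 9 reads per library.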
